A study of Mus musculus with 36 samples.

Results

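The transcripts described here belong to hepcidin, the liver hormone that controls body iron, and to the genes around it: Hamp and Hamp2 (hepcidin and its gene copy), Slc40a1 (ferroportin), Bmp6, Tfr2, Id1 and Smad7 (the signal that sets hepcidin and its feedback), and Tfrc, Trf and Fth1 (uptake, transport and storage of iron). They were chosen by gene symbol, as every array probe other than a control whose gene name is 1 of these 10 symbols. All 10 genes were found, on 15 probes, among 37325 genes on the array, and all 10 passed the filter on dim probes, as did 24251 genes in all. Every one of the 15 probes was well above background on all 36 arrays.

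Liver RNA of male C57Bl/6J mice was measured on Agilent arrays read in 1 colour, with 6 arrays in each of 6 groups. AAKO mice lack adipose triglyceride lipase (ATGL), the enzyme that starts the breakdown of stored fat, in white adipose tissue, and CTRL mice are their controls. The promoter that drives the deletion and the alleles of the controls are not given in the labels used here. CTRL fed and AAKO fed mice ate standard chow freely and carry the label of experiment 2. CTRL fasted and AAKO fasted mice went without food for 24 h, and CTRL CL316243 and AAKO CL316243 mice were fed and given CL316243, which activates beta 3 adrenergic receptors on adipocytes, at 3 mg/kg by gavage at Zeitgeber time 10 in 0.5% carboxymethyl cellulose. Both of these pairs carry the label of experiment 1. Livers of the 36 mice were taken at Zeitgeber time 16. Any comparison with the fed groups therefore also compares experiments, and one with the treated groups may also hold an effect of the gavage, which the labels give for no other group. Below, a gene said to be raised or lowered by fasting or CL316243 against fed mice differed between those groups, with no cause shown. Comparisons of genotypes within a condition lie within 1 experiment.

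Hepcidin is a small peptide made by hepatocytes and released into blood. It binds ferroportin, the only known cellular iron exporter, and causes its removal from the surface of macrophages, enterocytes and hepatocytes, which lowers the iron in plasma. Its transcription is known to rise with bone morphogenetic proteins, chiefly BMP6 and BMP2 from liver endothelial cells, which act through SMAD proteins, and with interleukin 6, which acts through STAT3. Mice carry a second gene copy, Hamp2, whose product is not known to control iron. The study asked how liver expression answers to fasting and to the agonist when adipocytes can or cannot release fatty acids, and the comparisons below put that question to the iron genes.

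The stretch just upstream of Hamp holds motifs of both of these signals, and that of Hamp2 shows how closely the copies match. The 150 bases before each start site are printed from RefSeq on GRCm38.p6, at chr7:30944030-30944179 for Hamp and chr7:30924182-30924331 for Hamp2, both on the minus strand. Capitals mark GGCGCC, the core of BMP response elements, and TTCTTGGAA, a match to the STAT consensus TTCNNNGAA.
Hamp: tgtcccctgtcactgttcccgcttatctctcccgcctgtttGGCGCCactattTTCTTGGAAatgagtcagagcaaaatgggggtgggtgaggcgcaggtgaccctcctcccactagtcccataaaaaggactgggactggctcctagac
Hamp2: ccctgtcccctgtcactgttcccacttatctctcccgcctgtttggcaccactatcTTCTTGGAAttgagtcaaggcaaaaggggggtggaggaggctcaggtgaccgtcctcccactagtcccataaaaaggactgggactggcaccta
The windows share 135 of 153 aligned positions (88.2%). In Hamp the GGCGCC begins 109 bases before the start site and the STAT match 97 bases before it. Hamp2 holds the STAT match, 94 bases before its start site, and no GGCGCC anywhere in the 300 bases searched, which run from 250 before to 50 after the start site. On either strand, GGCGCC stood in 3898 of 32851 mouse promoters of that length (11.9%) and TTCNNNGAA in 2726 (8.3%). Among the other members with a promoter in the table, 1 of the Tfrc promoters held GGCGCC and the Bmp6 promoter held CACGTG, an E-box present in 7.15% of promoters. TGACGTCA, a cAMP response element present in 1.79%, was in none of the promoters of Hamp, Hamp2, Tfrc, Tfr2, Fth1 and Bmp6. A match is a description of letters only. Promoters of Trf, Slc40a1, Id1 and Smad7 were not analysed here.

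Since the copies are so alike, it matters whether the array can tell them apart. The array has 1 probe for each, on chromosome 7 of mm9, the build of the probe positions, at chr7:31727490-31727549 for Hamp and chr7:31707520-31707579 for Hamp2, 19.9 kb apart. Capitals mark the bases that differ in the stretch both probes cover.
Hamp probe: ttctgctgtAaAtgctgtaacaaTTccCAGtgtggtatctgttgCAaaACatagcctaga
Hamp2 probe: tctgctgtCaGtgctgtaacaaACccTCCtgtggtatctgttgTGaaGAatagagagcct
Over that stretch 42 of 53 bases are identical (79.2%), with 0 gaps. Cross-binding of one transcript to the probe of the other was not tested.

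Each value below is log2 of the spot signal minus log2 of the 75th percentile of its array, so that 0 is the brightness of that percentile. Between 33128 and 37200 of 56605 probes per array were well above background. All 8 hepatocyte markers were well above background on every array. Their summed signal, in multiples of the 75th percentile, ran from 3004 to 3793 over all groups, but single markers differed between genotypes. In fasted AAKO mice 2 of the 8 were higher and 5 lower, from Cyp3a11 (-1.08) to Tat (1.14), beside 21.3% and 28.0% of all genes. After CL316243, 2 were higher and 1 lower, beside 13.4% and 11.3% of all genes. ATGL was removed outside the liver, so liver values do not check the genotype labels. One array stood apart: on the first principal component of the tested genes (41.9% of the variance), CTRL fasted replicate 2 lay at 81.3, the other 5 CTRL fasted arrays between 16.8 and 29, and the AAKO fasted arrays between 103 and 111. Results that rest on CTRL fasted arrays are given without it too where that moves a call or the value bears on it, and leaving it out ended none of the calls on members other than those named below.

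In fed liver none of the 10 genes was called between the genotypes, and on fasting or CL316243 the largest differences among them were in Hamp and Slc40a1, in opposite directions. With limma's moderated test and an adjusted p under 0.05 over all genes as the rule for a call, 0 of the 10 genes were called between AAKO and CTRL in fed mice, where 0.0783% of all tested genes were called and where no member passed an unadjusted p under 0.05. In fasted mice 3 of 10 were called, with Hamp higher and Slc40a1 and Tfr2 lower, where 49.3% of all tested genes were called. After CL316243, 2 of 10 were called, Hamp higher and Slc40a1 lower, beside 24.7% of all genes. The share of members called was thus below that of all genes in fasted mice and close to it after CL316243, so the account rests on the single genes and not on their number. In the plot of genotype differences, these 5 results lie away from 0 and the intervals of the others include it.

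**Figure D1:**
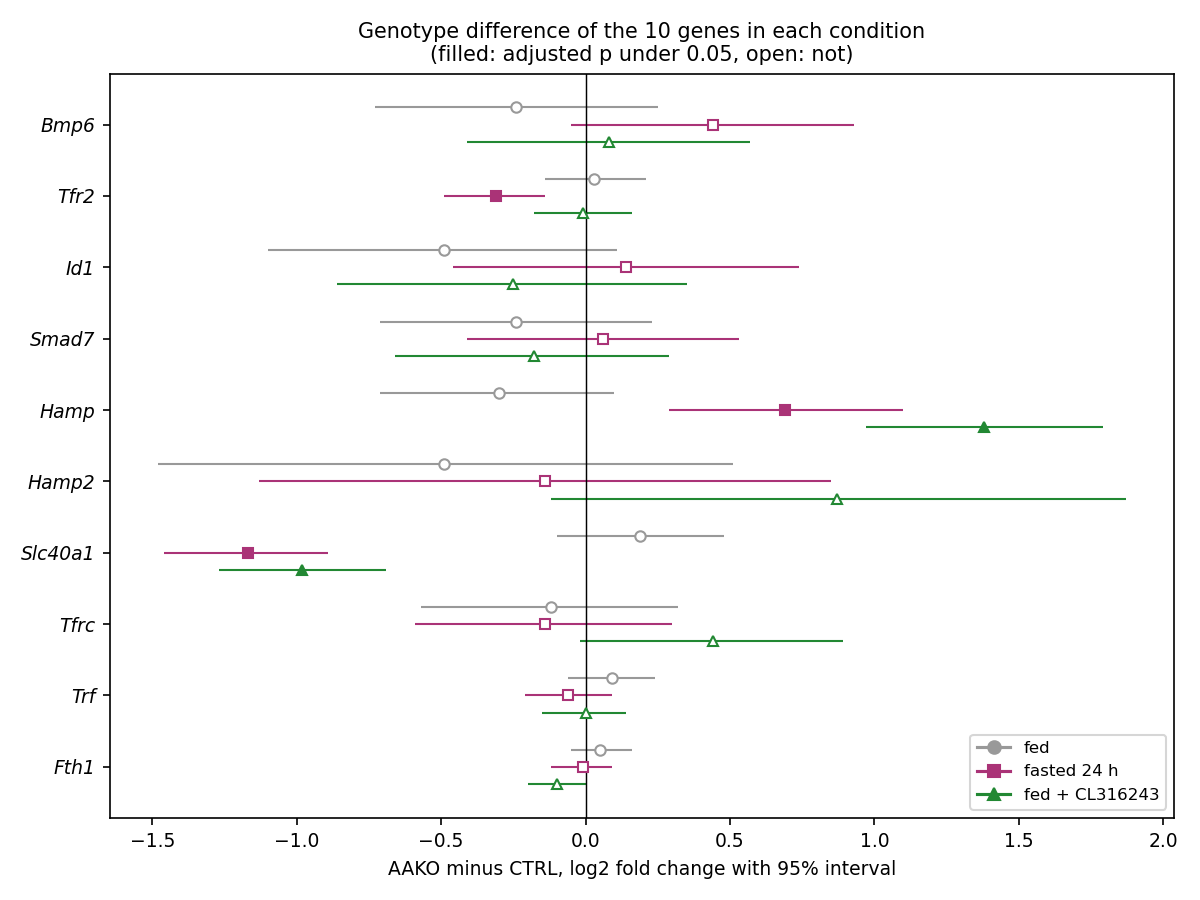
Log2 fold change between AAKO and CTRL liver (x axis) with its 95% interval for each of the 10 genes in fed, fasted and CL316243-treated mice, 6 arrays per group. Filled symbols passed an adjusted p under 0.05: Hamp at 0.69 (fasted) and 1.38 (CL316243), Slc40a1 at -1.17 and -0.98, and Tfr2 at -0.31 (fasted).

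Hamp was higher in AAKO than in CTRL after fasting and after CL316243, and was not called in fed mice. In fed liver Hamp ran from 6.76 over a median of 7.05 to 7.50 in CTRL and from 6.38 over 6.74 to 7.40 in AAKO, and the groups overlapped. In fasted liver it ran from 7.33 over 7.75 to 8.32 in CTRL and from 8.35 over 8.47 to 8.71 in AAKO, so that every AAKO value was above every CTRL value. After CL316243 it ran from 6.30 over 7.21 to 7.61 in CTRL and from 8.17 over 8.46 to 8.57 in AAKO, again without overlap. CTRL CL316243 replicates 5 and 6 had the lowest Hamp values of all 36 arrays.

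The AAKO minus CTRL difference in Hamp was 0.69 ± 0.20 (log2 fold change ± SE, n = 6 per group) in fasted mice, a 1.61-fold higher signal with an adjusted p of 0.00416. After CL316243 it was 1.38 ± 0.20, or 2.60-fold, with an adjusted p of 4.17e-06. In fed mice it was -0.30 ± 0.20, with a 95% interval from -0.71 to 0.10 and an adjusted p of 0.813. The genotype difference itself was larger by 1.00 ± 0.28 in fasted than in fed mice (adjusted p = 0.00588) and larger by 1.68 ± 0.28 after CL316243 than in fed mice (adjusted p = 0.000114). Between fasted and treated mice it differed by -0.69 ± 0.28, which missed the threshold (adjusted p = 0.0593) but passed it without CTRL fasted replicate 4 (-0.78, adjusted p = 0.0357), CTRL CL316243 replicate 1 (-0.80, adjusted p = 0.0244) or CTRL CL316243 replicate 4 (-0.80, adjusted p = 0.0288). For these 3 interaction tests 33.9%, 10.9% and 32.3% of all genes were called. In those with fed mice, condition and experiment cannot be told apart.

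The wash batch of the labels held arrays of all groups. Within wash batch 1 the Hamp difference was 0.74 in fasted (adjusted p = 0.0334) and 1.44 in treated mice (adjusted p = 0.00153). Within wash batch 2 the sizes were close to these, 0.64 and 1.26, and missed the threshold (adjusted p = 0.156 and 0.0589). Without CTRL fasted replicate 2, which had the highest Hamp value of its group, the fasted difference was 0.80 (adjusted p = 0.00110). The interaction of fasting with fed was 0.99 and 1.00 within the batches and not called in either (adjusted p = 0.0645 and 0.175), and that of CL316243 with fed was 1.69 (adjusted p = 0.0254) and 1.62 (adjusted p = 0.117).

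Set in order, the Hamp group means fell into 3 levels. AAKO fasted (8.49 ± 0.14, mean ± SD, n = 6) and AAKO CL316243 (8.43 ± 0.14) were 0.07 apart, within their spread. CTRL fasted (7.80 ± 0.36) lay 0.63 below them, by more than the SD of either neighbour. CTRL fed (7.13 ± 0.28), CTRL CL316243 (7.04 ± 0.59) and AAKO fed (6.83 ± 0.36) followed, each within the spread of the next.

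Fasting raised it in CTRL by 0.67 ± 0.20 (adjusted p = 0.00631, ranges overlapping; 0.56 and adjusted p = 0.0257 without CTRL fasted replicate 2) and in AAKO by 1.66 ± 0.20, or 3.17-fold (adjusted p = 9.33e-09, no overlap). Treated AAKO mice were higher in Hamp than fed AAKO mice by 1.59 ± 0.20, or 3.01-fold (adjusted p = 2.81e-07, no overlap). Agonist, gavage and experiment cannot be told apart in that comparison. In CTRL the difference after CL316243 was -0.09 ± 0.20, with an interval from -0.50 to 0.31. The fasting response of CTRL was not called within wash batch 2, at 0.58 (adjusted p = 0.206).

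**Figure D2:**
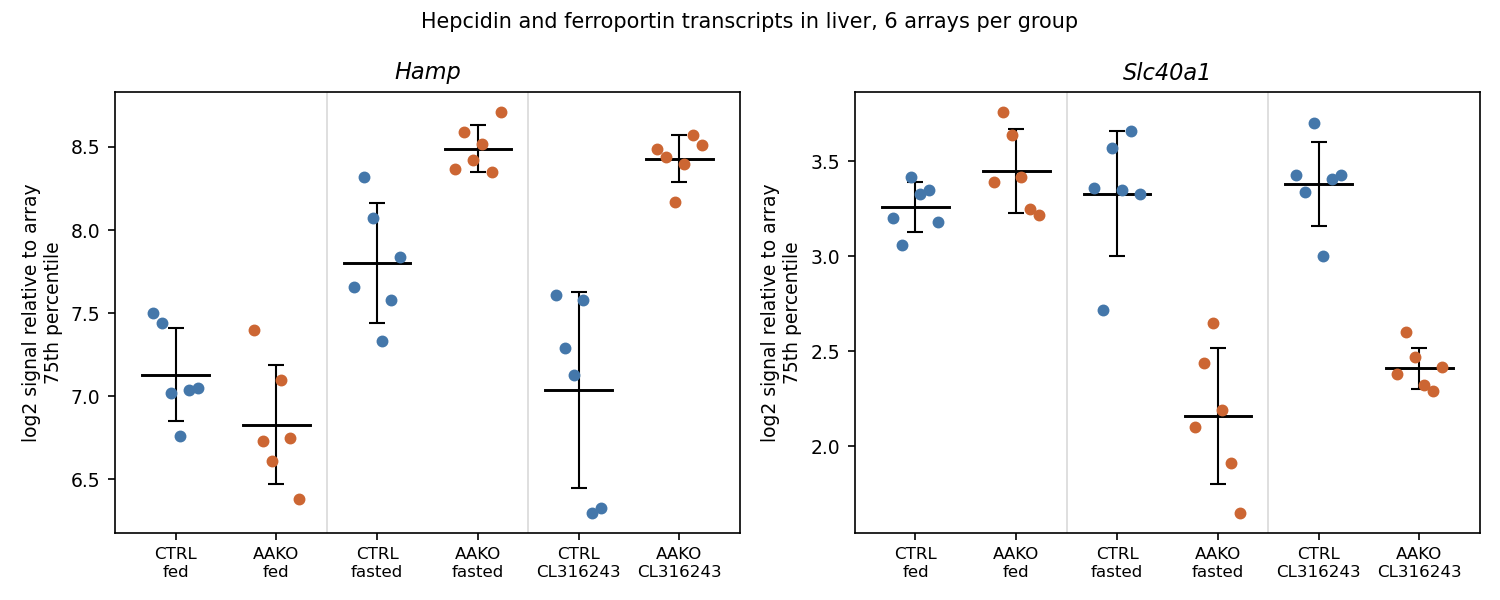
Log2 signal relative to the array's 75th percentile (y axis) of Hamp, left, and Slc40a1, right, on each of the 6 arrays (points) of the 6 groups, CTRL in blue and AAKO in orange, with the group mean (line) and SD (bar). In fasted and treated mice every AAKO point is above the CTRL points for Hamp and below them for Slc40a1.

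Hamp2 was lowest in fasted liver, where Hamp was high. In CTRL it ran from 1.08 over 2.72 to 3.30 in fed mice, from -1.73 over -0.45 to 1.75 in fasted mice and from 0.33 over 0.77 to 1.87 after CL316243. In AAKO it ran from 0.40 over 2.20 to 2.52, from -1.69 over -0.39 to 0.25 and from 0.81 over 1.96 to 2.56 in the same order. The fasted groups had the lowest medians in both genotypes, although CTRL fasted replicate 3, at 1.75, lay above 5 of the 6 treated CTRL values, and the fasted and fed ranges overlapped in CTRL and not in AAKO.

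Fasting lowered Hamp2 by 2.76 ± 0.48 in CTRL, which is 6.77-fold (adjusted p = 2.13e-05; -2.50 without CTRL fasted replicate 2), and by 2.42 ± 0.48 in AAKO, which is 5.34-fold (adjusted p = 6.06e-05). Hamp and Hamp2 thus went opposite ways on fasting in both genotypes. Between genotypes Hamp2 was not called: the difference was -0.49 ± 0.48 in fed, -0.14 ± 0.48 in fasted and 0.87 ± 0.49 in treated mice, and the last of these has an interval from -0.12 to 1.87 and was called, at 1.03 (adjusted p = 0.0385), with the 2 treated groups alone in the fit. The spread of Hamp2 was wide, with SDs from 0.63 to 1.29 over the groups, against 0.14 to 0.59 for Hamp. CL316243 lowered Hamp2 in CTRL by 1.48 ± 0.48 (adjusted p = 0.0250), a call lost within wash batch 2 (-0.49) and with slide as a factor. It was also lost on leaving out any 1 of CTRL fed replicates 1, 2 and 4 and CTRL CL316243 replicates 2 and 5. Over all 12 fits that left out 1 array the difference lay between -1.73 and -1.32, with adjusted p up to 0.0642. In AAKO the difference was -0.12 ± 0.49, and that between the genotypes' responses, 1.36 ± 0.69, was not called (adjusted p = 0.234).

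Slc40a1, which encodes ferroportin, was lower in AAKO in the same conditions in which Hamp was higher. In fed mice it ran from 3.06 over 3.27 to 3.42 in CTRL and from 3.22 over 3.40 to 3.76 in AAKO. In fasted mice it ran from 2.72 over 3.35 to 3.66 in CTRL and from 1.65 over 2.15 to 2.65 in AAKO, and after CL316243 from 3.00 over 3.42 to 3.70 and from 2.29 over 2.40 to 2.60. The 12 AAKO arrays of fasted and treated mice all lay below the other 24 arrays.

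Slc40a1 was lower in AAKO than in CTRL by 1.17 ± 0.14 in fasted mice, given as log2 fold change ± SE, which is 2.26-fold lower (adjusted p = 3.33e-08). After CL316243 the fold change was -0.98 ± 0.14, or 1.97-fold lower (adjusted p = 4.47e-06), and in fed mice 0.19 ± 0.14, with an interval from -0.10 to 0.48. The genotype difference of fasted mice departed from that of fed mice by -1.37 ± 0.20 (adjusted p = 3.23e-06), and that of treated mice by -1.17 ± 0.20 (adjusted p = 0.000155). Fasting and CL316243 lowered Slc40a1 in AAKO by 1.29 ± 0.14 and 1.04 ± 0.14, and the CTRL differences were 0.08 ± 0.14 and 0.13 ± 0.14, neither called.

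A second Slc40a1 probe gave -1.08 ± 0.24 in fasted and -0.95 ± 0.25 in treated mice, both called. Within the wash batches the fasted difference was -1.27 and -1.08 and that after CL316243 -0.83 and -1.12, and all 4 were called, while the interaction of CL316243 with fed was -1.0 within batch 1 and not called (adjusted p = 0.0901). Without CTRL fasted replicate 2, the lowest CTRL value at 2.72, the fasted difference was -1.29 (adjusted p = 1.29e-09). Fasted and treated AAKO mice differed by -0.25 ± 0.14 (adjusted p = 0.134), which passed the threshold without AAKO fasted replicate 3 (-0.35, adjusted p = 0.0346).

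Ferroportin is abundant in Kupffer cells, the macrophages of the liver, so their markers were read beside it. In bulk liver, fewer cells of a type and less RNA per cell cannot be told apart. Of 9 Kupffer cell and macrophage markers, all well above background on every array, 0 were called between genotypes in fasted mice, beside 49.3% of all genes. After CL316243, 1 was higher in AAKO, beside 13.4% of all genes. The median log2 fold changes of the 9 markers were 0.24 and 0.29. In fasted mice their summed signal ran from 29.0 to 91.0 in CTRL and from 19.3 to 85.5 in AAKO. After CL316243, 7 of the 9 were lower than in fed mice in each genotype, beside 12.8% of all genes in CTRL and 15.7% in AAKO. That comparison crosses experiments. The part of these cells in the Slc40a1 differences was not tested.

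The ligand Bmp6 and the response genes Id1 and Smad7 were not called between genotypes in any condition, while some other genes of the BMP signal, given below with the hepcidin control list, were higher in fasted AAKO mice. Bmp6, the ligand through which iron is known to raise hepcidin, ran in CTRL from -3.01 over -2.59 to -2.19 fed, from -2.80 over -2.08 to -1.43 fasted and from -4.42 over -3.39 to -2.76 after CL316243. In AAKO it ran from -3.25 over -2.92 to -2.17, from -2.01 over -1.67 to -1.23 and from -3.82 over -3.51 to -2.88. The AAKO fasted values lay above all AAKO fed and treated values.

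The genotype differences in Bmp6 were -0.24 ± 0.24 in fed, 0.44 ± 0.24 in fasted (interval -0.05 to 0.93; adjusted p = 0.130) and 0.08 ± 0.24 in treated mice. Without CTRL fasted replicate 3 the fasted difference was 0.58 and just passed the threshold (adjusted p = 0.049). Fasting raised Bmp6 in AAKO by 1.21 ± 0.24, or 2.31-fold (adjusted p = 5.03e-05), and the CTRL difference was 0.53 ± 0.24 (adjusted p = 0.0721; 0.69 and adjusted p = 0.0195 without CTRL fasted replicate 1). CL316243 lowered it in CTRL by 0.89 ± 0.24, or 1.85-fold (adjusted p = 0.00653), and the AAKO difference was -0.57 ± 0.24 (adjusted p = 0.0691; called at -0.66 without AAKO fed replicate 6 and at -0.68 without AAKO CL316243 replicate 6). Neither response was called as different between the genotypes (adjusted p = 0.124 in the fasting test, 0.641 in that of CL316243). The CTRL fall after CL316243 was -1.08 and -0.70 within the wash batches and not called in either. With the normexp background correction the Bmp6 changes kept their direction and calls but shrank, to 0.63 for fasting in AAKO and -0.36 for CL316243 in CTRL.

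Liver endothelial cells are the main source of BMP6, and their markers moved with it after CL316243. Of 9 sinusoidal endothelial markers, 8 were lower than fed in CTRL and 5 in AAKO, beside 12.8% and 15.7% of all genes. The markers had median log2 fold changes of -0.94 and -0.62. Their summed signal ran from 40.8 to 60.4 in CTRL fed and from 21.3 to 39.9 in CTRL CL316243 mice, without overlap, and all 9 were well above background on every array. On fasting, 1 was higher and 2 lower in CTRL, beside 20.9% and 22.4% of all genes. In AAKO 3 were higher and 3 lower, near the shares of all genes (27.8% and 35.7%). Between genotypes 3 of the 9 were higher in AAKO in fasted and 3 in treated mice, beside 21.3% and 13.4% of all genes. The part of these cells in the Bmp6 differences was not tested.

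Id1, a direct target of BMP and SMAD signalling, and Smad7, the inhibitory SMAD that the same signal induces, gave no genotype call either. Id1 ran in AAKO from -0.55 over -0.01 to 0.50 fed, from 0.55 over 0.94 to 2.16 fasted and from -0.71 over 0.06 to 0.20 after CL316243, so that the fasted arrays lay above the rest. In CTRL it ran from 0.02 over 0.33 to 1.33, from -0.23 over 1.08 to 1.86 and from -0.31 over 0.13 to 1.01, and all 3 ranges overlapped. Fasting raised Id1 in AAKO by 1.16 ± 0.30, or 2.23-fold (adjusted p = 0.000998), and the CTRL difference was 0.52 ± 0.30 (adjusted p = 0.160; 0.77 and adjusted p = 0.0258 without CTRL fasted replicate 5). After CL316243 the AAKO difference in Id1 was -0.02 ± 0.30, with an interval from -0.62 to 0.59. Other BMP targets went both ways in that comparison. Id3 was higher by 0.89 ± 0.30 (adjusted p = 0.0232) and Id4 lower by 0.79 ± 0.23 (adjusted p = 0.00869), and neither was called within either wash batch. The part of the BMP signal in the Hamp differences was not tested.

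Smad7 stayed between -1.39 and 0.18 on all arrays and was called in none of the 12 comparisons. Its genotype differences were -0.24 ± 0.23 fed, 0.06 ± 0.23 fasted and -0.18 ± 0.23 after CL316243. The nearest to a call was fasted against fed in AAKO, at 0.41 ± 0.23 (adjusted p = 0.123), which passed at 0.54 without AAKO fed replicate 3 (adjusted p = 0.0466).

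**Figure D3:**
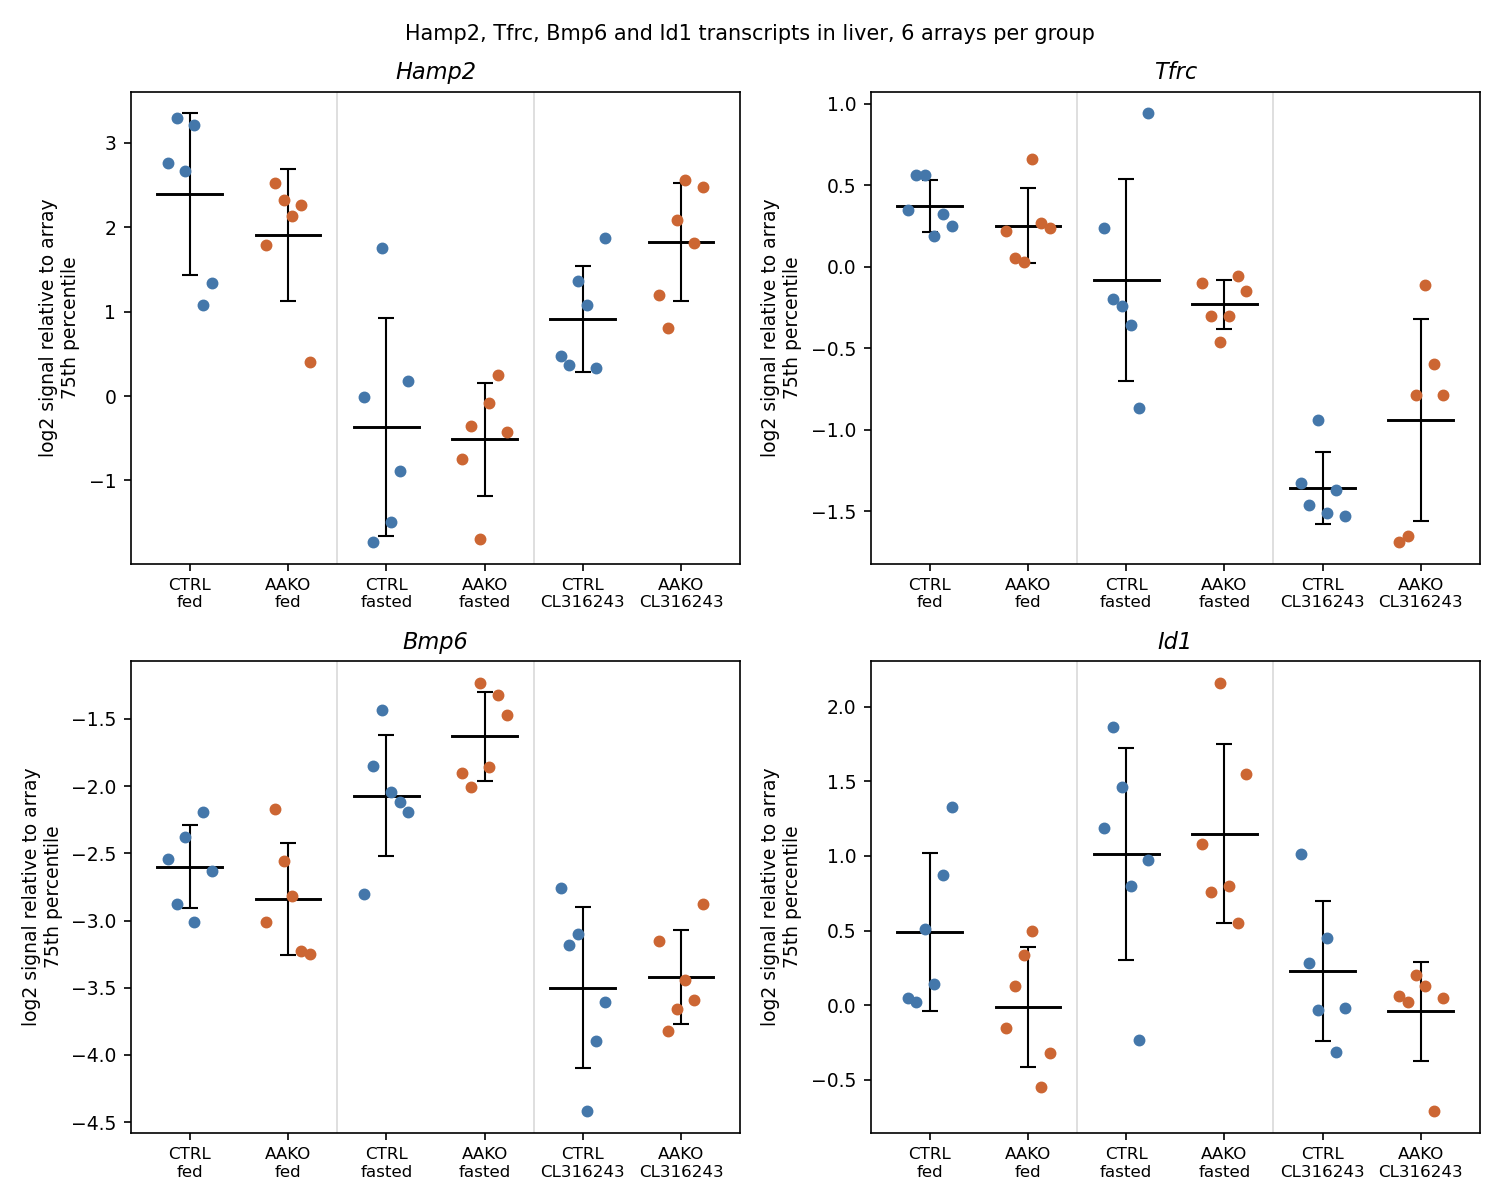
Log2 signal relative to the array's 75th percentile (y axis) of Hamp2, Tfrc, Bmp6 and Id1 on each of the 6 arrays (points) of the 6 groups, CTRL in blue and AAKO in orange, with the group mean (line) and SD (bar). Hamp2 is lowest in the fasted groups, Tfrc and Bmp6 have their lowest group means after CL316243, and Id1 its highest in the fasted groups.

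Tfr2, a hepatocyte receptor that senses iron-loaded transferrin and feeds the BMP signal to hepcidin, changed by small amounts with little spread. It ran from 6.43 over 6.59 to 6.79 in CTRL fasted and from 6.17 over 6.25 to 6.38 in AAKO fasted mice, without overlap. The other 4 groups lay between 6.23 and 6.81. The AAKO minus CTRL difference in fasted mice was -0.31 ± 0.08, or 1.24-fold lower (adjusted p = 0.00221), and -0.48 and -0.15 within the wash batches, the latter not called (adjusted p = 0.246). It differed from the fed difference by -0.35 ± 0.12 (adjusted p = 0.0217) and from that after CL316243 by -0.30 ± 0.12 (adjusted p = 0.0484). The second Tfr2 probe gave -0.31, -0.36 and -0.31 for these 3 results, all called. Both interactions were lost with normexp, quantile or median scaling, with the authors' table and within either wash batch, and the second of them in 16 of 24 fits that left out 1 array. Over all 24 of these fits the second lay between -0.35 and -0.26, with adjusted p up to 0.0896. Fasted AAKO mice were also lower than fed (-0.27 ± 0.08) and treated (-0.33 ± 0.08) AAKO mice, and the first of these calls was lost under normexp, quantile scaling, the authors' table and within wash batch 1, the second with that table and within wash batch 2.

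Tfrc, Trf and Fth1 showed no genotype call in any condition, although normexp and the authors' table called Trf and Fth1, and quantile scaling called Fth1, lower in AAKO after CL316243. Tfrc, the receptor that takes up transferrin-bound iron, fell after CL316243 in both genotypes. In CTRL it ran from 0.19 over 0.34 to 0.56 fed, from -0.87 over -0.22 to 0.94 fasted and from -1.53 over -1.41 to -0.94 after CL316243. In AAKO it ran from 0.03 over 0.23 to 0.66, from -0.46 over -0.22 to -0.06 and from -1.69 over -0.79 to -0.11. Treated and fed values did not overlap in either genotype.

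CL316243 lowered Tfrc by 1.73 ± 0.22 in CTRL, which is 3.31-fold (adjusted p = 1.02e-06), and by 1.17 ± 0.22 in AAKO, which is 2.24-fold (adjusted p = 0.000119). A second Tfrc probe gave -1.05 and -1.02, both called. Within wash batch 2 the AAKO fall was -0.62 and was not called (adjusted p = 0.0879). Treated mice were also lower than fasted mice, whose Tfrc was higher by 1.28 ± 0.22 in CTRL and 0.69 ± 0.22 in AAKO, although the second probe did not call the latter (0.43, adjusted p = 0.121). Between genotypes the difference after CL316243 was 0.44 ± 0.22, with an interval from -0.02 to 0.89, and within wash batch 2 alone it was 0.82 and called (adjusted p = 0.0415). Fasted and fed mice differed by -0.45 ± 0.22 in CTRL (adjusted p = 0.0978), called at -0.68 without CTRL fasted replicate 6, and by -0.47 ± 0.22 in AAKO (adjusted p = 0.0612), where the ranges did not overlap. The latter was called at -0.58 by the second probe, and also with normexp (-0.41), the mean of both probes (-0.53), slide as a factor (-0.55) and only its groups in the fit (-0.47).

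Tfrc is also the receptor of immature red cells, so blood markers were read beside it. Of 10 erythroid and blood markers on the array, 7 were well above background on each array. Of the 7 tested, 5 were lower than fed after CL316243 in CTRL and 6 in AAKO, beside 12.8% and 15.7% of all genes. The 7 had median log2 fold changes of -1.29 and -0.98. The summed signal of the 10 markers on the array ran from 644 to 976 in CTRL fed and from 244 to 674 in CTRL CL316243 mice. Against fasted mice, treated CTRL mice were lower in 5 and higher in 1, and treated AAKO mice higher in 1. The shares of all genes were 19.2%, 17.6% and 33.8% in that order. The part of blood in the Tfrc result was not tested.

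Trf, the plasma carrier of iron made by hepatocytes, and Fth1, the heavy chain of ferritin that stores it, moved by small amounts. Trf stayed between 9.08 and 9.83 on all arrays and was lower in fasted than in treated mice by 0.22 ± 0.07 in CTRL and 0.28 ± 0.07 in AAKO, both called, and lower than fed in AAKO by 0.25 ± 0.07. The CTRL difference between fasted and fed was -0.10 ± 0.07 and not called (adjusted p = 0.261), but was called by the second probe (-0.26, adjusted p = 0.0377), with normexp (-0.08) and with median scaling (-0.17). The CTRL result against treated mice was lost with quantile scaling and without CTRL CL316243 replicate 5 (-0.16, adjusted p = 0.0647), and the second Trf probe gave larger differences, of -0.43, -0.48 and -0.55 for CTRL and AAKO against treated mice and AAKO against fed. The AAKO difference between fasted and treated mice was also lost with normexp and quantile scaling and was 0.00 in the authors' table (adjusted p = 0.946), and that between fasted and fed was not called within either wash batch. Fth1 stayed between 8.07 and 8.43. It was lower in treated than in fed AAKO mice by 0.15 ± 0.05 (adjusted p = 0.0206), a call lost without AAKO fed replicate 4 or 5 or AAKO CL316243 replicate 6 and under normexp, quantile and median scaling. Fasted AAKO mice were higher than treated ones by 0.13 ± 0.05 (adjusted p = 0.0285), lost without AAKO fasted replicate 3 or 6 or AAKO CL316243 replicate 1 or 6 and with median scaling or no filter.

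Across conditions, more members were called in AAKO than in CTRL, and so were more of all genes, so these counts mark no trait of the members. Fasting against feeding called 2 of 10 in CTRL (Hamp higher, Hamp2 lower; 43.3% of all genes called) and 7 of 10 in AAKO (Hamp, Id1 and Bmp6 higher; Hamp2, Slc40a1, Tfr2 and Trf lower; 63.5% of all genes). CL316243 against feeding called 3 of 10 in CTRL (Tfrc, Bmp6 and Hamp2 lower; 23.3% of all genes) and 4 of 10 in AAKO (Hamp higher; Tfrc, Slc40a1 and Fth1 lower; 31.4%). These comparisons share fed groups within a genotype. A gene called in one genotype and not in the other is not shown to differ between them, and the interaction tests called 3 of 10 for fasting (Hamp, Slc40a1 and Tfr2), beside 33.9% of all genes, and 2 of 10 for CL316243 (Hamp and Slc40a1), beside 10.9%.

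Fasting against CL316243, within experiment 1, called 6 of 10 members in CTRL, beside 36.8% of all genes, and 7 of 10 in AAKO, beside 59.9%. Bmp6, Id1 and Tfrc were higher, and Hamp2 and Trf lower, in fasted than in treated mice of both genotypes, with Hamp higher in CTRL and Fth1 higher and Tfr2 lower in AAKO. Bmp6 differed most among those higher, by 1.42 ± 0.24 in CTRL and 1.78 ± 0.24 in AAKO (0.61 and 0.85 with normexp). In these comparisons 7 and 6 of the 9 endothelial markers were also higher, beside 19.2% and 26.2% of all genes. Hamp was higher in fasted CTRL mice by 0.76 ± 0.20 (adjusted p = 0.00258; 0.65 and adjusted p = 0.0115 without CTRL fasted replicate 2), a call lost within wash batch 2 and with only its groups in the fit, and in AAKO the difference was 0.07 ± 0.20, with an interval from -0.33 to 0.48. The CTRL call on Id1 (0.78 ± 0.30, adjusted p = 0.0377) was lost on leaving out any 1 of CTRL fasted replicates 1, 2, 3 and 6 and CTRL CL316243 replicates 3, 5 and 6. Over all 12 fits that left out 1 array, whether the call held or not, the difference lay between 0.61 and 1.02. The CTRL call on Hamp2 (-1.28 ± 0.48, adjusted p = 0.0370) was lost without any 1 of CTRL fasted replicates 2, 4 and 5 and CTRL CL316243 replicates 3, 4 and 6. Its values over all 12 fits that left out 1 array lay between -1.69 and -1.02.

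Counted by ranges that do not overlap between the groups, fasting against feeding separated 0 of 10 members in CTRL and 6 in AAKO, where 22.6% and 42.6% of all genes were separated. CL316243 against feeding separated 1 (Tfrc) in CTRL and 3 in AAKO, beside 12.3% and 15.1%, and fasting against CL316243 separated 1 (Tfrc) and 5, beside 17.8% and 37.4%. The genotypes were separated in 3 members when fasted and 2 when treated, beside 21.3% and 11.5%.

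The genes known to set hepcidin were read from a list of 40, of which 36 passed the filter. In fasted mice 15 of the 36 were higher and 7 lower in AAKO than in CTRL, where 21.3% and 28.0% of all genes were, and the list's median log2 fold change was 0.32 against -0.04 over all genes. After CL316243, 8 were higher and 7 lower, beside 13.4% and 11.3% of all genes, with a median of 0.08 against 0.03. In fed mice 0 of the 36 were called.

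Across conditions, fasting against feeding called 10 of the 36 higher and 9 lower in CTRL (20.9% and 22.4% of all genes) and 16 higher and 8 lower in AAKO (27.8% and 35.7%). CL316243 against feeding called 5 higher and 6 lower in CTRL (10.4% and 12.8%) and 6 higher and 12 lower in AAKO (15.7% each way). Fasting against CL316243 called 9 higher and 7 lower in CTRL (19.2% and 17.6%) and 18 higher and 11 lower in AAKO (26.2% and 33.8%).

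Among these genes, the largest rises in fasted AAKO mice were in receptors and a SMAD. Il6ra, the receptor of interleukin 6, was at 6.02 in AAKO and 4.24 in CTRL fasted mice, a difference of 1.78 ± 0.20 without overlap (adjusted p = 1.35e-08). Acvr2b, a type II receptor of activins and BMPs, was higher by 1.24 ± 0.17, and Smad9, a SMAD of the BMP branch, by 1.1 ± 0.27. The largest falls were in Il1b, an inflammatory cytokine known to act on hepcidin (-1.09 ± 0.30), Creb3l3, a liver transcription factor reported to bind the Hamp promoter (-0.80 ± 0.08), and Pdgfb, a growth factor (-0.73 ± 0.19). Without CTRL fasted replicate 2 the 6 differences were 1.99, 1.28, 1.34, -1.33, -0.81 and -0.90 in the order named. Within wash batch 2, Smad9, Il1b and Pdgfb were not called. The Acvr2b mean was also higher in AAKO (2.62) than in CTRL (2.05) after CL316243, with overlapping ranges.

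Further genes of the BMP signal were picked from the list after their values were seen. In fasted mice Bmp2, the other main endothelial ligand, was higher in AAKO by 0.51 ± 0.14 (adjusted p = 0.00237, ranges overlapping), and the BMP co-receptor Hjv by 0.76 ± 0.14 without overlap. The BMP targets Id4 and Bambi were higher by 0.82 ± 0.23 and 0.71 ± 0.11, both without overlap, and Id2 was lower by 0.55 ± 0.20. Id3, Atoh8 and Smad6 were not called, at 0.32, 0.32 and 0.26. The called differences without CTRL fasted replicate 2 were 0.54 for Bmp2, 0.84 for Hjv, 0.87 for Id4, 0.72 for Bambi and -0.69 for Id2. Bmp2 was not called within wash batch 1, Id4 within wash batch 2 and Id2 within either. The Id2 call was also lost as the mean of its probes, with only its groups in the fit, and without any 1 of CTRL fasted replicates 3, 4 and 6 and AAKO fasted replicates 3 and 5. Over all fits that left out 1 array, whether the call held or not, the Id2 difference lay between -0.69 and -0.42.

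After CL316243 the genes with the largest rises were others. Il1b was higher in AAKO by 2.23 ± 0.30 (adjusted p = 1.41e-06), Id3, a BMP target like Id1, by 1.71 ± 0.30, and Socs3, a feedback inhibitor induced by STAT3, by 1.69 ± 0.50. Creb3l3 was lower by 0.96 ± 0.08 (adjusted p = 2.61e-10), Hjv, the BMP co-receptor hemojuvelin, by 0.59 ± 0.14, and Smurf1, a ligase that marks SMADs for breakdown, by 0.52 ± 0.10. Within wash batch 2 only Creb3l3 and Smurf1 of these 6 were called. Several of these genotype differences depended on the condition: that of fasted mice departed from that of treated mice by 1.81 ± 0.29 for Il6ra, 1.35 ± 0.20 for Hjv and -3.33 ± 0.42 for Il1b, all called, though that of Il6ra was not within wash batch 2. In fasted AAKO mice 3 of 7 neutrophil markers were also higher than in CTRL, and after CL316243 0 of 7, beside 21.3% and 13.4% of all genes. When fasted, their summed signal ran from 6.80 to 81.8 in AAKO and from 1.75 to 51.6 in CTRL. When treated, it ran from 3.12 to 8.30 and from 1.75 to 4.73. Between 5 and 7 of these markers were above background on each array. Their part in Il1b was not tested.

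**Figure D4:**
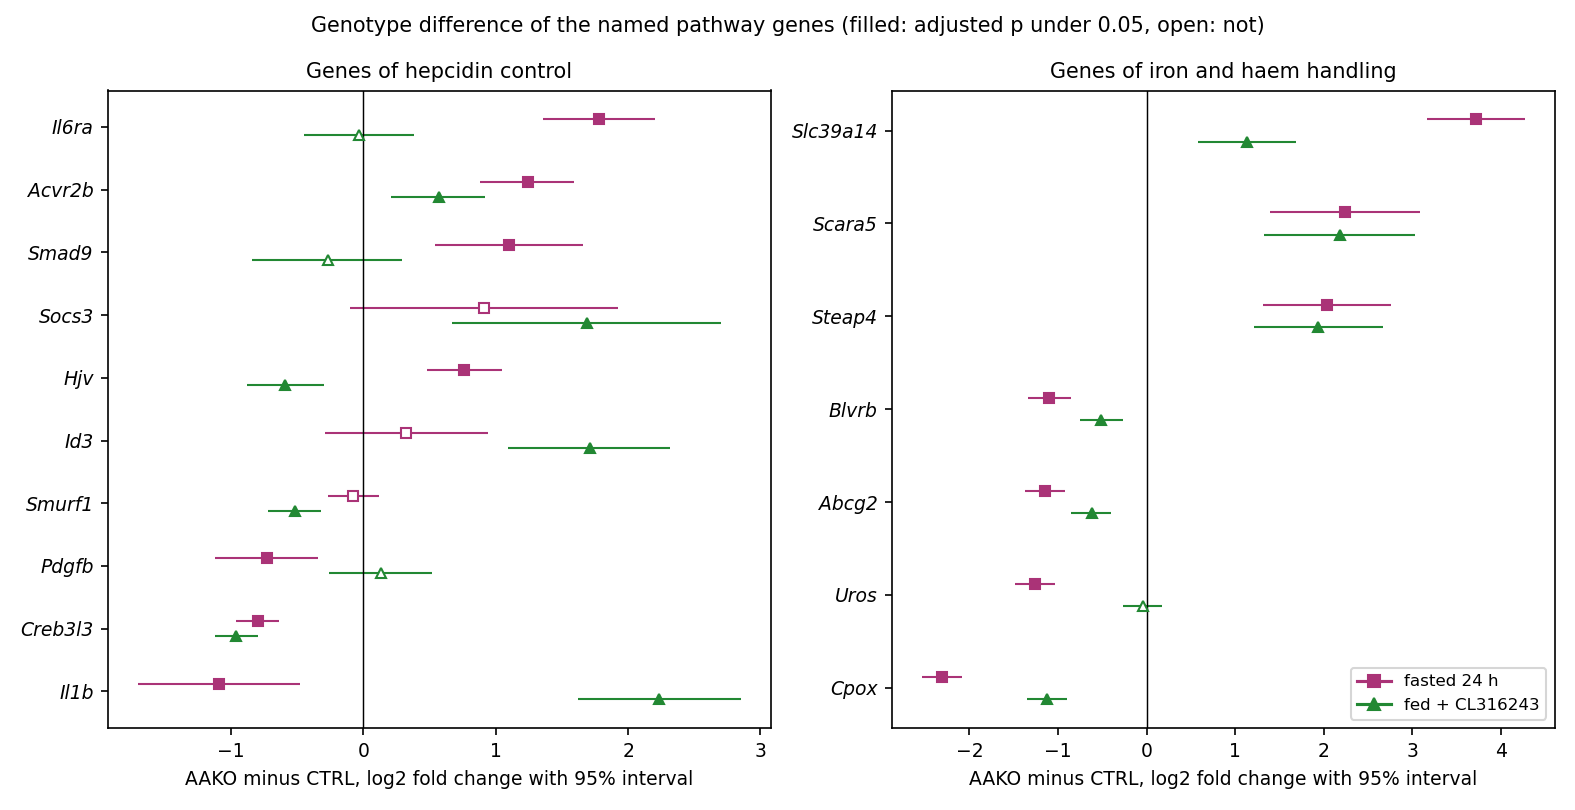
Log2 fold change between AAKO and CTRL liver (x axis) with its 95% interval in fasted and CL316243-treated mice for the genes named from the hepcidin control list, left, and the iron handling list, right. Filled symbols passed an adjusted p under 0.05, and Creb3l3, Blvrb, Abcg2 and Cpox are lower while Scara5, Steap4 and Slc39a14 are higher in AAKO in both conditions.

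The wider iron handling list held 49 genes, of which 47 were tested. In fed mice 0 of the 47 were called between genotypes. In fasted mice 11 were higher and 18 lower in AAKO, beside 21.3% and 28.0% of all genes, with a median log2 fold change of -0.05 against -0.04 over all genes. After CL316243, 11 were higher and 8 lower, beside 13.4% and 11.3% of all genes, with a median of 0.14 against 0.03. The largest rises of the list in both conditions were in Slc39a14, Scara5 and Steap4. Slc39a14, a zinc transporter that also carries iron not bound to transferrin into hepatocytes, ran from 2.24 to 4.93 in CTRL and from 5.91 to 6.93 in AAKO fasted mice, a difference of 3.72 ± 0.27, or 13.2-fold (adjusted p = 1.58e-12). After CL316243 it was higher by 1.14 ± 0.27, and its genotype difference was larger by 2.58 ± 0.38 in fasted than in treated mice (adjusted p = 4.73e-06). Without CTRL fasted replicate 2 the fasted difference was 4.12.

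Scara5, a receptor of ferritin, was higher in AAKO by 2.24 ± 0.41 in fasted and 2.18 ± 0.42 in treated mice, and Steap4, a metalloreductase of iron and copper, by 2.04 ± 0.35 and 1.94 ± 0.36. Within wash batch 2 neither Scara5 result was called, nor were the results after CL316243 for Steap4, Slc39a14, Blvrb and Abcg2 named here. The deepest falls were in Cpox, an enzyme of haem synthesis. It ran from 3.51 to 4.35 in CTRL and from 1.58 to 2.07 in AAKO fasted mice, a difference of -2.31 ± 0.11, or 4.95-fold lower (adjusted p = 3.22e-16), and was lower by 1.12 ± 0.11 after CL316243. Uros, of the same pathway, was lower by 1.26 ± 0.11 in fasted mice and differed by -0.04 ± 0.11 in treated mice, where the fall in Blvrb, a biliverdin reductase, was 0.51 ± 0.12. Abcg2, an exporter of porphyrins, was lower by 1.15 ± 0.11 and 0.62 ± 0.11. Its mean was also lower in AAKO (4.50) than in CTRL (4.92) in fed mice, a difference that was not called.

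Between conditions, fasting against feeding called 9 of the 47 higher and 18 lower in CTRL (20.9% and 22.4% of all genes) and 10 higher and 23 lower in AAKO (27.8% and 35.7%). Steap4 fell by 2.58 ± 0.35 on fasting in CTRL, and Slc39a14 rose by 3.38 ± 0.27 in AAKO. CL316243 against feeding called 3 higher and 10 lower in CTRL (10.4% and 12.8%) and 9 higher and 11 lower in AAKO (15.7% each way). Fasting against CL316243 called 9 higher and 17 lower in CTRL (19.2% and 17.6%) and 13 higher and 24 lower in AAKO (26.2% and 33.8%). Slc25a37, the mitochondrial iron importer mitoferrin 1, fell in both genotypes after CL316243, by 0.95 ± 0.12 in CTRL (-0.42 and not called as the mean of its probes) and 1.35 ± 0.12 in AAKO, where blood markers were lower too. Of the hepcidin control list, Socs3 and Stat3 rose after CL316243 in both genotypes, Socs3 by 1.96 ± 0.49 in CTRL and 3.37 ± 0.50 in AAKO and Stat3 by 1.27 ± 0.19 and 1.70 ± 0.19. Of these 4 results only the Stat3 rise in AAKO was called within wash batch 2.

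Over the 36 arrays, the named genes whose pattern was most like that of Hamp were Nr5a1, a nuclear receptor of steroid-making cells (Pearson r = 0.965), and Gucy2c, an intestinal guanylate cyclase (r = 0.936), with 3 transcripts named by position only in the files between 0.94 and 0.954. These are descriptions over arrays of 6 groups that share those groups and the array scale, and within groups the r was 0.867 for Nr5a1 and 0.709 for Gucy2c. Nr5a1 was at 0.91 ± 0.22 in AAKO fasted and 0.84 ± 0.20 in AAKO CL316243 mice (mean ± SD, n = 6) and between -0.43 and 0.18 on average in the other groups. Among the members, Slc40a1 had the most negative r with Hamp, -0.801 over the arrays and -0.301 within groups. The r with Hamp was 0.37 for Id1, 0.33 for Bmp6 and -0.35 for Hamp2 over the arrays.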

How the data were processed

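Liver RNA (200 ng per sample, TRIzol) was labelled with Cy3 and hybridised to 36 Agilent arrays in 1 colour, per the labels' protocols. The deposited scanner files hold spot intensity values from Agilent Feature Extraction 10.10.1.1, already background-subtracted per the file headers, with marks for signal above background. The authors' deposited log2 values served as an alternative, and their normalization is not given in the sources used here.

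Processed signals were taken as log2 minus the 75th percentile of each array, after leaving out outlier spots (0.127%). Of 56605 probes, 32994 were named by RefSeq accession. Each gene was represented by its brightest probe and tested if, in 1 group or more, 5 of the 6 arrays had it well above background. All 36 arrays entered 1 limma 3.58.1 fit (R 4.3.3) with 6 group means and the wash batch, with Benjamini-Hochberg adjustment over the 24251 genes. Tests were two-sided and the script was tested on simulated data. Each array is taken as 1 mouse. The number of arrays limits the precision, and none were duplicates (highest r 0.991172). The 10 members, the gene lists and the comparisons were chosen with earlier results of these data known. From each pathway list the text names the 3 largest called rises and falls between genotypes in fasted and treated mice, and the 5 genes most correlated with Hamp. The same rule picked genes in the other comparisons, of which only some are named, chosen after their values were seen. Alternatives were other scalings, background corrections, filters, probes, batch and slide terms, samples in the fit and arrays left out. Replicate numbers shared by the groups did not pair the samples. Some results on single genes are not reported here.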

Additional observations from a re-analysis of the deposited data

Results flagged for a closer look

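On 4 of the 60 gene and group combinations of the 10 members, 1 array lay far from the other 5 by Dixon's criterion at the 95% level, and chance alone gives about 1 in 20. Hamp2 was at 0.40 on AAKO fed replicate 6, below the rest of its group. Tfrc was at -0.94 on CTRL CL316243 replicate 3, above the rest. Slc40a1 was at 2.72 on CTRL fasted replicate 2, below the rest, on the array that also had the highest Hamp value of its group and stood apart over all genes. Id1 was at -0.71 on AAKO CL316243 replicate 5, below the rest.

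By the interaction term, the genotype difference was not the same across the conditions for 3 members. In the tests against fed mice, condition and experiment cannot be told apart. Against fed mice, the fasted difference departed by -1.37 for Slc40a1, 1.00 for Hamp and -0.35 for Tfr2, and that after CL316243 by -1.17 for Slc40a1 and 1.68 for Hamp. Between fasted and treated mice it departed by -0.30 for Tfr2.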

How the results depend on the processing

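Of 120 results of members (10 genes in 12 comparisons), 40 were called, and the calls on Slc40a1 between genotypes in fasted and treated mice held under all 13 other settings and on leaving out each array. Over the settings Hamp lay between 0.64 and 0.74 in fasted and between 1.25 and 1.44 in treated mice and was not called within wash batch 2 alone. Of the 40 calls, 28 held within wash batch 1 and 20 within wash batch 2, where fewer arrays enter, and between 34 and 40 under each of the other settings. Members called changed from 3 to 1 for the fasted genotype difference, from 4 to 2 and from 3 to 1 for CL316243 against fed in AAKO and CTRL, from 7 to 3 for fasted against CL316243 in AAKO and from 2 to 1 for fasted against fed in CTRL, all within wash batch 2. Fasted against CL316243 in CTRL gave 3 within either batch and 2 with only its groups in the fit, and the interactions of fasting and CL316243 with fed gave 1 each within either batch. The CL316243 genotype difference called 4 members with normexp and with the authors' table, which added Trf and Fth1, and quantile scaling added Fth1. The fasted against CL316243 interaction (Tfr2) called 0 with normexp, quantile and median scaling, the authors' table, no filter, either batch, slide as a factor, and the replicate block. Trf reversed in AAKO: CL316243 against fed was -0.12 with normexp (adjusted p = 0.00156) and with the authors' table (adjusted p = 0.0236), and fasted against CL316243 was 0.00 with that table (adjusted p = 0.946). Among list genes outside the text, the mean of all probes reversed the interaction of CL316243 with fed for Il6st (-0.03) and that of fasting with fed for Lrp1 (0.16). The cause was not tested.

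Leaving out 1 array gave 2 to 2 members called for the genotype difference after CL316243, 3 to 4 in fasted and 0 to 0 in fed mice. It gave 3 to 5 and 2 to 3 for CL316243 against fed in AAKO and CTRL, 6 to 7 and 4 to 6 for fasted against CL316243, 7 to 8 and 2 to 3 for fasted against fed, and 2 to 2, 0 to 2 and 3 to 3 for the interactions of CL316243 with fed, fasted with CL316243 and fasted with fed. Same-numbered arrays did not deviate together (median r 0.00283 over 90 pairs, 16 of them over 0.1), and the replicate block kept 39 of the 40 calls. Slide as a random block changed none of them (correlation -0.00981).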

Other observations

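Further genes of haem synthesis on the iron handling list were picked out after their values were seen. In fasted mice Alad, an early enzyme of the pathway (-0.86), and Ppox, a late one (-0.52), were lower in AAKO than in CTRL, as log2 fold changes, while Alas1, the first enzyme (0.23), and Fech, the last (-0.03), were not called. The differences were -0.97 for Alad and -0.63 for Ppox without CTRL fasted replicate 2. Erythroid and blood markers differed between the genotypes in fasted mice in 1 of 7, which was lower in AAKO, as were 28.0% of all genes.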
